A study of Mus musculus with 10 samples.

Results

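The insulin-like growth factor (IGF) system was followed in mammary tumors through 10 genes, the ligands Igf1 and Igf2, the receptors Igf1r and Igf2r, and the binding proteins Igfbp2, Igfbp3, Igfbp4, Igfbp5, Igfbp6 and Igfbp7. The list was chosen with earlier results of these data known. Its genes were taken by name from a table of read counts, and all 10 were found among the table's 17864 genes. Of these, 9 had enough counts to be tested and Igf2 did not. The tumors came from the BALB/c mammary carcinoma line 4T1, whose cells had received Cas9 together with a control guide RNA (sgCon, 5 tumors) or a guide RNA that targets TAZ through its gene Wwtr1 (sgTaz, 5 tumors). Per the study's methods, 100000 cells were placed in the mammary fat pad of female mice of 6 to 8 weeks, and RNA was taken from the whole tumor, so that host stroma, vessels and leukocytes were read together with the cancer cells. The guides and Cas9 came from lentiviral constructs, the cells of both groups carried Cas9, and whether the edited cells were 1 clone or a pool is not stated in the methods. For both groups the labels give the cell line 4T1 and the tissue mammary tumor. They number the tumors 1 to 5 in each group without naming the mice, so p-values measure the spread between these tumors.

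IGF1 and IGF2 are secreted growth factors that activate the IGF1 receptor, a tyrosine kinase that signals through IRS and SHC adaptors to PI3K, AKT and mTOR. The IGF2 receptor, also known as the cation-independent mannose 6-phosphate receptor, has no kinase and removes IGF2 from the cell surface. The binding proteins hold the ligands outside the cell, where proteases release them, and in the mammary gland the system takes part in ductal growth and in involution. TAZ is a coactivator of the Hippo pathway that binds DNA through TEAD factors.

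Promoter windows of 4 members are shown because they belong to the 3 genes that were called by DESeq2 below, and to the tested member whose window holds a TEAD match. Each window runs from 250 bases before to 50 bases after a RefSeq transcript start on GRCm38.p6, the mm10 build of the files. They lie at chr10:87860861-87861160 on the plus strand for Igf1, chr7:67952007-67952306 on the plus strand for Igf1r, chr1:72824230-72824529 on the plus strand for Igfbp2 (the first of its windows) and chr1:72874816-72875115 on the minus strand for Igfbp5. In GENCODE M21, the annotation used for gene names here, Igf1 starts at 87858265, upstream of its window. Igf1r starts there at 67952827, downstream of its window, so neither window holds that gene start. Capitals mark CpG dinucleotides in Igf1, Igf1r and Igfbp2, and the TEAD letters in Igfbp5.
Igf1: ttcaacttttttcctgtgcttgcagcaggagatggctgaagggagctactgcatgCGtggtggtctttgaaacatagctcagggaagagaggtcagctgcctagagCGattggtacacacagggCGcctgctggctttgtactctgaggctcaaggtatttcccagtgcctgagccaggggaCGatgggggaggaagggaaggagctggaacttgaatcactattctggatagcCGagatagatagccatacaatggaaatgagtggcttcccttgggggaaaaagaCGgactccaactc
Igf1r: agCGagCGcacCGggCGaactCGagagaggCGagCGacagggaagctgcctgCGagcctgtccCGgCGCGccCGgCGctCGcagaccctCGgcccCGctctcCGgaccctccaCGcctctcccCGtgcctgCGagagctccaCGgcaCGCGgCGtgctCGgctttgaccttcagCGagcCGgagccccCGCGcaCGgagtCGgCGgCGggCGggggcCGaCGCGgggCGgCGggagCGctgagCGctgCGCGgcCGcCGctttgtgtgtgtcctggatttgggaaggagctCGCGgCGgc
Igfbp2: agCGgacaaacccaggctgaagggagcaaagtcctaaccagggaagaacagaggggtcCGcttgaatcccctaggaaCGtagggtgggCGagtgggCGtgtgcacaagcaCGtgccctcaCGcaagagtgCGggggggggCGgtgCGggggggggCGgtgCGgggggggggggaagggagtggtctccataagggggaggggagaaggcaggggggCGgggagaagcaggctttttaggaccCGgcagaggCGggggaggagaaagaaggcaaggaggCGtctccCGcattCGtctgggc
Igfbp5: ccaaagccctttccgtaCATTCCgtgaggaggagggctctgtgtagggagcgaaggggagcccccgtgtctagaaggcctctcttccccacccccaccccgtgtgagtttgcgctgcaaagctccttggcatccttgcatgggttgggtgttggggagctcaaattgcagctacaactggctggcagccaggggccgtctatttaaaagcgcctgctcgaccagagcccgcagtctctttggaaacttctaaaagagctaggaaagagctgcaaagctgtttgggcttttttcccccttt

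The windows differed most in CpG content. Igf1r held 48 CpG, more than 98.8% of all 32851 mouse windows of that length, Igfbp2 held 18 and Igf1 held 6, against a median of 7. The letters GGAATG, a core that TEAD factors bind, were searched on both strands (CATTCC on the printed strand), and 14.7% of all windows held them. All 10 members had a window. Of their 14 windows 4 held the letters, 3 of Igf2 and 1 of Igfbp5, where the match began 233 bases before the start. The printed windows of Igf1, Igf1r and Igfbp2 did not hold these letters, which says nothing of sites elsewhere.

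Total counts ran from 14753922 to 19595821 in sgCon tumors and from 12185383 to 18395558 in sgTaz tumors. Levels are given as CPM, the share of a gene in the counts of a tumor after TMM scaling, which removes differences in depth, and levels of different genes are compared as RPKM, the CPM divided by the exon length in kilobases. Wwtr1 itself (chromosome 3, 57455649 to 57575910, minus strand) was at 192, 181, 115, 171 and 156 CPM in sgCon tumors 1 to 5 and at 86.6, 104, 109.9, 139 and 102 CPM in sgTaz tumors 1 to 5. The groups overlapped in 1 sgTaz tumor, and 4 sgTaz tumors lay below all sgCon tumors (log2 fold change −0.59, SE 0.151, edgeR adjusted p = 0.096, DESeq2 adjusted p = 0.0151). A guide RNA edits DNA and need not lower the RNA, and host cells carry the unedited gene.

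The difference of each gene between groups was tested with edgeR's quasi-likelihood test and adjusted over all 14816 tested genes, and DESeq2 and limma-voom with sample quality weights are given beside it. Among the 9 tested members, Igf1, Igf1r and Igfbp4 were higher on average and Igfbp2 was lower in sgTaz tumors, while Igf2r, Igfbp3, Igfbp5, Igfbp6 and Igfbp7 had intervals that include no change. No member was called by edgeR, that is had an adjusted p below 0.05, which held for 0.00675% of all tested genes, a single gene, Tmx4 (named after its values were seen). At an unadjusted edgeR p below 0.05 there were 4 members, 3 higher and 1 lower, against 21.8% of all tested genes (9.86% higher and 11.9% lower). DESeq2 called 3 members (Igf1 and Igf1r higher, Igfbp2 lower) against a background of 6.75% (3.28% higher and 3.47% lower). Limma-voom called these 3 and Igfbp4, also higher, against 10.4% (4.63% higher and 5.8% lower). The groups did not overlap for 2 members, Igf1r and Igfbp2, and for 4.57% of all tested genes. The median log2 fold change was 0.01 over the 9 members, 5 above 0 and 4 below, and −0.019 over all tested genes. Since RNA came from whole tumors, fewer cells of a type and less RNA per cell cannot be told apart in any of these values.

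**Figure D1:**
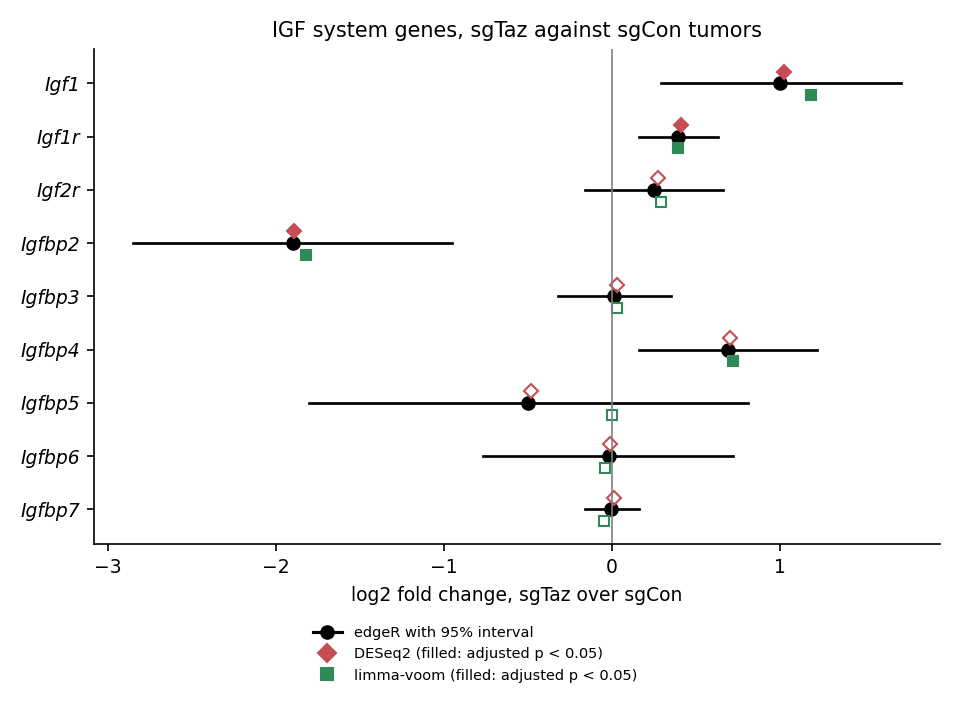
Log2 fold change of the 9 tested IGF genes, sgTaz over sgCon (horizontal axis), by edgeR with its 95% interval (black), DESeq2 (red diamonds) and limma-voom (green squares), filled where the adjusted p is below 0.05. Igf1, Igf1r and Igfbp4 have edgeR intervals above 0 and Igfbp2 has one below 0.

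Among the ligands, Igf1 encodes the growth factor that the liver makes under growth hormone and that stromal cells and macrophages make locally. It was measured at 10.8, 23.8, 29.4, 16.8 and 15.8 CPM in sgCon tumors 1 to 5 and at 27.8, 18.4, 41.3, 52.4 and 54.4 CPM in sgTaz tumors 1 to 5. All 5 sgTaz tumors lay above the sgCon median, 3 lay above every sgCon tumor, and the groups overlapped through sgTaz tumors 1 and 2. The mean was 19.3 ± 7.31 CPM (SD, n = 5) in sgCon and 38.9 ± 15.6 CPM (SD, n = 5) in sgTaz tumors, 2.01-fold higher (95% interval 1.23 to 3.28). Igf1 did not pass in edgeR (unadjusted p = 0.00975, adjusted p = 0.129), passed in DESeq2 (adjusted p = 0.0277) and in limma-voom (adjusted p = 0.0324), and had p = 0.0397 in an exact two-sided permutation test of the tumors. With 1 tumor left out, the DESeq2 call was lost in 5 of 10 fits, those without sgCon tumor 1 (adjusted p = 0.051), sgCon tumor 5 (0.101), sgTaz tumor 3 (0.102), sgTaz tumor 4 (0.133) or sgTaz tumor 5 (0.0835).

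Markers of macrophages were higher on average in sgTaz tumors, like Igf1. The study's mass cytometry went in the opposite direction, with significantly fewer macrophages reported in sgTaz than in sgCon tumors. Its over-representation analysis of the RNA-seq also placed macrophages among the terms enriched in sgCon tumors. The markers measure RNA of whole tumors rather than cell numbers, which sets them apart from the cytometry but not from the study's RNA-seq. The reason for the opposite directions was not tested. All 10 of 10 listed macrophage markers had a log2 fold change above 0, with a median of 0.48, and none was at 0 in all tumors. Their summed level was 1169, 1809, 1427, 1957 and 861 CPM in sgCon tumors 1 to 5 and 2032, 1687, 2149, 2273 and 2262 CPM in sgTaz tumors 1 to 5. As for Igf1, sgTaz tumor 2 was the lowest of its group and lay within the sgCon range. SgTaz tumor 1 lay within that range for Igf1 but above it for the macrophage sum. Among sgCon tumors the macrophage sum was highest in tumor 4 and lowest in tumor 5, while Igf1 was highest in tumor 3 and lowest in tumor 1. DESeq2 called 3 of the 10, Adgre1, Csf1r and Mrc1, all higher, against 3.28% of all genes called higher. Of the 10 fibroblast markers 6 were above 0, with sums of 1941 to 5314 CPM in sgCon and 1949 to 5249 CPM in sgTaz tumors, and DESeq2 called Pdgfra higher and Thy1 lower, against 6.75% of all genes called. Adipocyte markers had sums of 71 to 118 CPM in sgCon tumors, 44.8 and 60.3 CPM in sgTaz tumors 2 and 1, and 191 to 214 CPM in the other 3, which are the 3 sgTaz tumors with the most Igf1. DESeq2 and limma-voom called 0 adipocyte genes. The same 3 tumors also had the highest fibroblast and endothelial sums of the sgTaz group. For adipocytes too the order differed among sgCon tumors, since tumor 3 had the most Igf1 (29.4 CPM) and the lowest adipocyte sum (71 CPM). The part of these cell types in the level of Igf1 was not tested.

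The other ligand, Igf2, is an imprinted growth factor of fetal tissues and was close to undetected. It had 0 counts in each of the 5 sgCon tumors and 9, 1, 3, 3 and 0 counts in sgTaz tumors 1 to 5. The 16 counts of the sgTaz group gave a level 5.99 times that of 3 counts over the sgCon group, taken as its floor. Without sgTaz tumor 1 this ratio is 3.3. Neither the counting error of the sgTaz counts nor the spread between tumors is in the ratio, so it is not a lower bound. In GENCODE M21, 62.8% of the exon bases of Igf2 are shared with the gene Gm49394 on the same strand, and how reads over such bases were assigned is not stated in the methods. Gm49394 had 1 to 4 counts in sgCon tumors and 45, 2, 11, 11 and 0 counts in sgTaz tumors 1 to 5, in an order like that of Igf2, so the value of Igf2 is uncertain.

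Of the receptors, Igf1r (chromosome 7, 67952827 to 68233668, plus strand) encodes the kinase that both ligands activate. Its level was 164, 148, 115, 162 and 145 CPM in sgCon tumors 1 to 5 and 202, 197, 222, 179 and 166 CPM in sgTaz tumors 1 to 5. Every sgTaz tumor lay above every sgCon tumor, by a narrow margin between sgTaz tumor 5 and sgCon tumor 1. Groups that do not overlap with sgTaz above were found for 2.44% of all tested genes. The mean went from 147 ± 19.5 to 193 ± 21.5 CPM (SD, n = 5 each), a fold of 1.31 (95% interval 1.11 to 1.55), with adjusted p of 0.101 in edgeR, 0.0218 in DESeq2 and 0.038 in limma-voom. The exact permutation p was 0.00794, the smallest that 5 against 5 tumors can give. DESeq2 kept the call in 6 of 10 fits with a tumor left out and lost it without sgCon tumor 5 (adjusted p = 0.0791) or without sgTaz tumor 1 (0.0832), 3 (0.117) or 4 (0.0579).

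Igf2r, which clears IGF2 and carries lysosomal enzymes, was the receptor with the higher level per exon length. It was at 515, 310.0, 222, 353 and 369 CPM in sgCon tumors 1 to 5 and at 374, 469, 489, 420.3 and 351 CPM in sgTaz tumors 1 to 5. The sgTaz tumors all lay inside the sgCon range, whose highest and lowest values are tumors 1 and 3. The fold was 1.19 (95% interval 0.894 to 1.58, edgeR adjusted p = 0.455), and no tool called it.

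**Figure D2:**
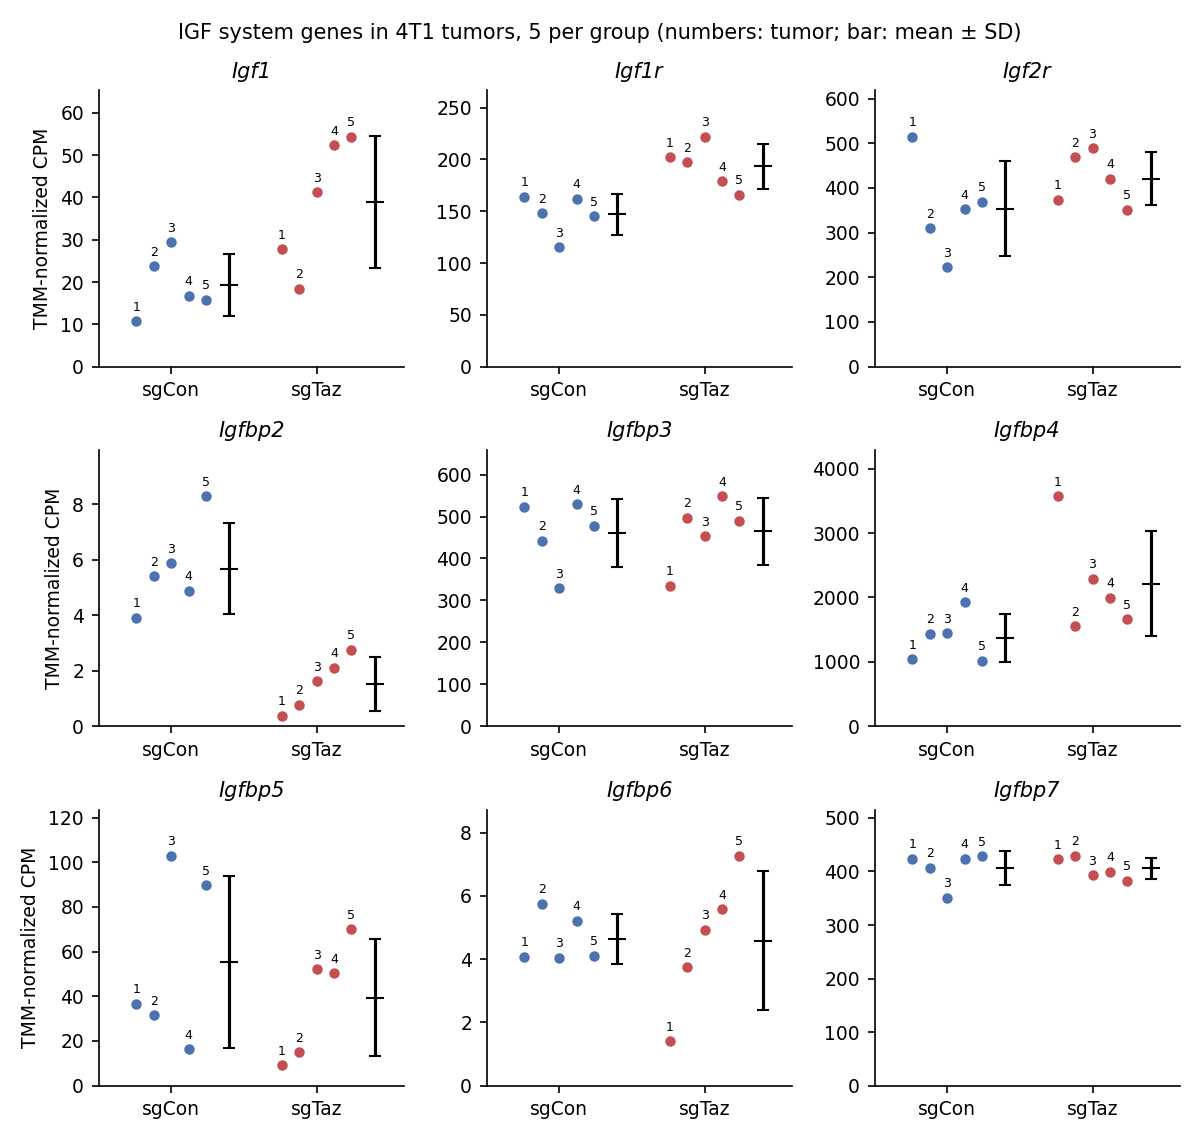
TMM-normalized CPM (vertical axes, from 0) of the 9 tested IGF genes in each sgCon (blue) and sgTaz (red) tumor, with the tumor's number and the group mean ± SD in black. Igf1r and Igfbp2 are the genes whose groups do not overlap.

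Igfbp2, a binding protein that prefers IGF2 and also binds integrins through an RGD motif, had the lowest fold of all members. Its counts were 65, 108, 94, 88 and 121 in sgCon tumors 1 to 5 and 6, 12, 30, 26 and 38 in sgTaz tumors 1 to 5. As CPM these were 3.9, 5.41, 5.86, 4.88 and 8.29 in sgCon and 0.382, 0.775, 1.61, 2.1 and 2.76 in sgTaz tumors. All sgTaz tumors lay below all sgCon tumors, as 2.13% of all tested genes did. The mean was 5.67 ± 1.63 CPM in sgCon and 1.53 ± 0.968 CPM in sgTaz tumors (SD, n = 5 each), a fold of 0.268 (95% interval 0.139 to 0.517). The edgeR adjusted p was 0.0907, the DESeq2 adjusted p 0.00126 and the limma-voom adjusted p 0.0229, and the exact permutation p was 0.00794. DESeq2 called it in all 10 fits that leave out a tumor (adjusted p at most 0.0161), and edgeR called it in 1 of 10, that without sgTaz tumor 5 (adjusted p = 0.0441).

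The marker lists of epithelial, B and lymph node stromal cells had negative median log2 fold changes, like Igfbp2. So did the lists of T cells, neutrophils, skeletal muscle, and pericytes and smooth muscle, given further below. EdgeR called 0 genes of any of these lists. All 10 epithelial markers had a log2 fold change below 0 (median −0.50), with summed levels of 2241 to 5254 CPM in sgCon and 1654 to 4079 CPM in sgTaz tumors, and DESeq2 called 2 of them, lower, against 3.47% of all genes. The highest sgTaz sum was in tumor 2, where Igfbp2 was low, at 0.775 CPM. B cell markers were below 0 in 8 of 8 (sums of 67.7 to 838 CPM in sgCon and 8.01 to 181 CPM in sgTaz tumors), and markers of lymph node stroma in 6 of 6 tested. DESeq2 called 0 genes of either list, and limma-voom called 7 and 5 of them lower, against 5.8% of all tested genes. The unadjusted edgeR p was below 0.05 for 8 and 0, against 11.9% of all tested genes with such a p and lower. For the last list the sums were 43.5 to 882 CPM in sgCon tumors, 1.55 to 7.61 CPM in sgTaz tumors 1 to 4 and 408 CPM in sgTaz tumor 5. That tumor also had the highest Igfbp2 of its group, so leaving it out must lower the log2 fold change of Igfbp2 (−2.22, against −1.90 with it). The sum of 882 CPM was that of sgCon tumor 3, where Igfbp2 was at 5.86 CPM, and without that tumor the log2 fold change was −1.88. No marker of these lists was at 0 in all tumors, and their part in the level of Igfbp2 was not tested.

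Igfbp4, which holds IGFs away from the receptor until PAPP-A cuts it, had the highest CPM of the members. It was measured at 1039.8, 1439, 1446, 1922 and 1017 CPM in sgCon tumors 1 to 5 and at 3575, 1553, 2289, 1994 and 1666 CPM in sgTaz tumors 1 to 5. All 5 sgTaz tumors lay above the sgCon median and 3 lay above all sgCon tumors, and sgTaz tumor 1 stood highest. From 1373 ± 371 to 2215 ± 813 CPM (SD, n = 5 each) the fold was 1.61 (95% interval 1.11 to 2.34). Neither edgeR (adjusted p = 0.151) nor DESeq2 (adjusted p = 0.0545) called it, limma-voom did (adjusted p = 0.0405), and the exact permutation p was 0.0397. Without sgTaz tumor 1 the log2 fold change was 0.45 in edgeR, against 0.69 with it.

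Igfbp3, the main carrier of IGFs in blood, was at 524, 442, 329, 530.0 and 478 CPM in sgCon tumors 1 to 5 and at 335, 497, 453, 549 and 490.0 CPM in sgTaz tumors 1 to 5. The groups spanned nearly the same range, and the fold was 1.01 (95% interval 0.802 to 1.27, edgeR adjusted p = 0.969). Igfbp7, a relative with low affinity for IGFs that is abundant in tumor vessels, varied least, with a coefficient of variation of 7.92% in sgCon and 4.9% in sgTaz tumors. It lay between 351 and 428 CPM in sgCon and between 383 and 429.8 CPM in sgTaz tumors, and its fold was 0.997 (95% interval 0.892 to 1.11). Of its exon bases 7.0% are shared with Polr2b on the opposite strand. Endothelial markers were above 0 in 6 of 8, with sums of 410.1 to 569.6 CPM in sgCon and 345 to 689 CPM in sgTaz tumors.

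Igfbp5, which binds matrix and is known from the involuting mammary gland, was the most variable tested member. It had 36.6, 31.5, 103, 16.4 and 89.8 CPM in sgCon tumors 1 to 5 and 9.17, 15, 52, 50.3 and 70.1 CPM in sgTaz tumors 1 to 5. The spread within either group (coefficient of variation 69.4% and 66.4%) was wider than the gap between their means, and the fold of 0.708 had a 95% interval from 0.287 to 1.75 (edgeR adjusted p = 0.658). The log2 fold change of −0.50 was −0.0001 in limma-voom and −0.13 in edgeR without sgCon tumor 3. Igfbp6, which prefers IGF2, was low, at 4.08, 5.76, 4.05, 5.22 and 4.11 CPM in sgCon tumors 1 to 5 and 1.4, 3.75, 4.93, 5.58 and 7.28 CPM in sgTaz tumors 1 to 5. The sgTaz tumors enclosed the whole sgCon range, and the fold was 0.984 (95% interval 0.586 to 1.65, edgeR adjusted p = 0.976). Igfbp2 and Igfbp5 lie near each other on chromosome 1, at 72824503 to 72852474 on the plus strand and 72857932 to 72874884 on the minus strand, and their edgeR log2 fold changes were −1.90 (95% interval −2.85 to −0.95) and −0.50 (−1.80 to 0.81).

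Per kilobase of exon the members covered a wide range. In sgCon tumors the mean RPKM was 337 ± 26.7 for Igfbp7, 311 ± 83.9 for Igfbp4, 147 ± 26.1 for Igfbp3 and 38 ± 11.4 for Igf2r (SD, n = 5). Below these came Igfbp5 (9.25 ± 6.42 RPKM), Igf1r (8.76 ± 1.16 RPKM), Igfbp6 (4.18 ± 0.713 RPKM), Igfbp2 (3.07 ± 0.885 RPKM) and Igf1 (1.95 ± 0.738 RPKM). Over the sgCon tumors, the ranges of Igfbp7 and Igfbp4 overlapped, as did those of Igfbp5 and Igf1r, of Igfbp6 and Igfbp2, and of Igfbp2 and Igf1, and the other neighbors in this order were separate. In sgTaz tumors Igfbp4 came first with 502 ± 184 RPKM and Igfbp7 next with 336 ± 16.5 RPKM, and their ranges overlapped. Igfbp3 (149 ± 25.6 RPKM) and Igf2r (45.2 ± 6.37 RPKM) kept the places they had in sgCon tumors. Igf1 (3.93 ± 1.57 RPKM) lay above Igfbp2 (0.827 ± 0.524 RPKM) in all 5 sgTaz tumors, while Igfbp2 lay above Igf1 in all 5 sgCon tumors. These levels are a description without a test.

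In every tumor Igf1r lay below Igf2r in RPKM, and Igf1 lay below Igfbp3, Igfbp4 and Igfbp7. Of the summed RPKM of the 6 binding proteins, Igfbp4 made up 38% ± 7.06 in sgCon and 49.1% ± 9.2 in sgTaz tumors (SD, n = 5 each), with ranges of 30.3 to 45.1% and 40.3 to 63.8% that overlap. Igfbp7 made up 41.8% ± 4.41 and 34.2% ± 4.87, Igfbp3 18.2% ± 2.97 and 15.4% ± 4.21, and Igfbp2 0.385% ± 0.131 and 0.0881% ± 0.0605 of that sum in sgCon and sgTaz tumors.

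**Figure D3:**
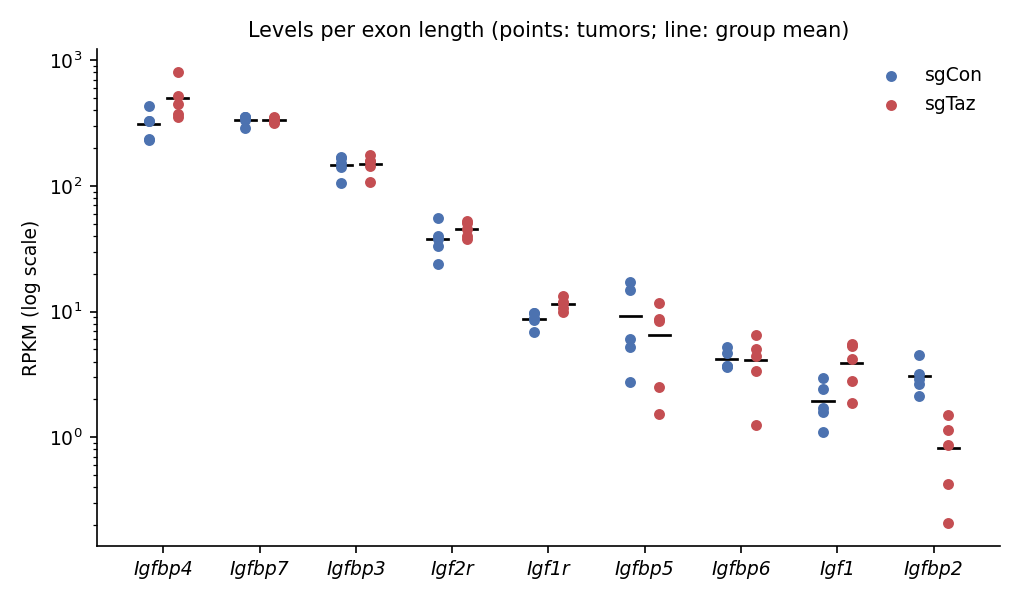
RPKM on a log scale (vertical axis) of the 9 tested IGF genes in each sgCon (blue) and sgTaz (red) tumor, with a line at the group mean. Igfbp4, Igfbp7 and Igfbp3 lie above 100 RPKM in all tumors, and Igfbp2 and Igf1 change places between the groups.

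The rest of the pathway was read from 6 lists with 48 genes, of which 42 were in the table and 40 were tested. The log2 fold change was above 0 for 27 of the 40, against 6961 of all 14816 tested genes. Its median was 0.059, against −0.019 over all tested genes. EdgeR called 0 of them after adjustment. An unadjusted edgeR p below 0.05 was found for 6, all 6 higher, against 21.8% of all tested genes (9.86% higher). DESeq2 and limma-voom each called the same 3 genes, Stc1, Gsk3b and Igf2bp3, all higher in sgTaz tumors. Over all genes they called 6.75% and 10.4%, with 3.28% and 4.63% called higher. With 1 tumor left out, edgeR called Stc1 in 2 of 10 fits.

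Among related ligands and receptors, 3 were tested and 0 called by any of the 3 tools. Ghr, the growth hormone receptor, was at 63.6 ± 27.7 CPM in sgCon and 106 ± 36.2 CPM in sgTaz tumors (log2 fold change 0.74, edgeR adjusted p = 0.222), and Insr, the insulin receptor, had a log2 fold change of 0.09 (95% interval −0.14 to 0.33). Ins1, Ins2, Igfbp1 and Igfbpl1 were not found by name in the table of counts, and Igfals was below the filter.

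In the list of IGFBP proteases and their inhibitors, 1 of 6 tested genes was called by DESeq2, higher, against 3.28% of all genes called higher. Stc1, a stanniocalcin that blocks the protease PAPP-A and so keeps IGFBP4 intact, was between 21 and 39.8 CPM in sgCon and between 65.2 and 128 CPM in sgTaz tumors, without overlap. The mean of 33.7 ± 7.64 CPM in sgCon against 85.5 ± 26.9 CPM in sgTaz tumors (SD, n = 5 each) gave a log2 fold change of 1.34 (SE 0.221, edgeR adjusted p = 0.0824, DESeq2 adjusted p = 5.89e-06). DESeq2 called Stc1 in all 10 fits with a tumor left out. Adam12, a metalloprotease that cuts binding proteins, had a log2 fold change of −0.54 (95% interval −1.42 to 0.34). Pappa2 was below the filter, and Adam28 and the adaptor Irs4 were not found by name in the table of counts.

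Of the 7 tested receptor adaptors, 6 had a log2 fold change above 0, against 6961 of all 14816 tested genes, and 0 were called by DESeq2. Grb14, which restrains the insulin receptor, was at 3.4 ± 2.48 CPM in sgCon and 9.57 ± 7.8 CPM in sgTaz tumors (log2 fold change 1.48, edgeR adjusted p = 0.181), with groups that overlap, and Shc1 had a log2 fold change of 0.21 (edgeR adjusted p = 0.233). In the PI3K, AKT and FOXO branch 6 of 12 were above 0, and DESeq2 called 1, Gsk3b, higher, against 3.28% of all genes called higher. Gsk3b, a kinase that AKT inhibits, had a log2 fold change of 0.25 (edgeR adjusted p = 0.125, DESeq2 adjusted p = 0.0336), and DESeq2 kept the call in 3 of 10 fits with a tumor left out, those without sgCon tumor 1, sgCon tumor 2 or sgTaz tumor 2 (adjusted p up to 0.152 in the others). Pik3cb, a catalytic subunit of PI3K, was at 28.4 ± 1.55 CPM in sgCon and 32.3 ± 1.16 CPM in sgTaz tumors (SD, n = 5 each, log2 fold change 0.19, edgeR adjusted p = 0.175), and no tool called it.

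In the mTOR branch 8 of 9 were above 0, all by little, against 6961 of all 14816 tested genes, and 0 were called by any of the 3 tools. Rheb, the GTPase that switches on mTOR, had a log2 fold change of 0.12 (95% interval −0.02 to 0.27) and Rps6kb1, the S6 kinase, one of 0.14 (−0.06 to 0.33). Among the IGF2 mRNA-binding proteins, which bind the transcripts of Igf2 and other genes, Igf2bp3 was low and without overlap, at 1.98 ± 0.934 CPM in sgCon and 4.4 ± 0.966 CPM in sgTaz tumors (log2 fold change 1.15, edgeR adjusted p = 0.113, DESeq2 adjusted p = 0.0237). DESeq2 lost this call without sgCon tumor 5 or sgTaz tumor 1, 3 or 4 (adjusted p up to 0.103). Igf2bp2 had a log2 fold change of 0.24 (edgeR adjusted p = 0.24).

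**Figure D4:**
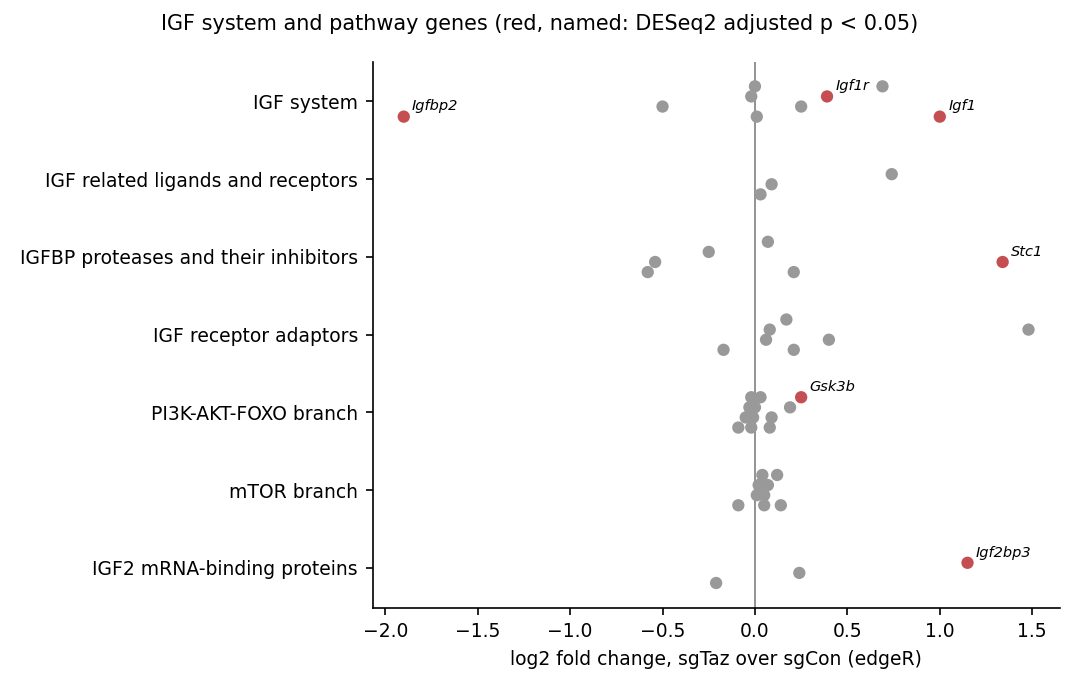
EdgeR log2 fold change, sgTaz over sgCon (horizontal axis), of the tested genes of the IGF system and of 6 pathway lists, 1 point per gene, with genes called by DESeq2 in red and named. The mTOR branch lies close to 0, and Stc1 and Igf2bp3 lie above 1.

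The tested genes with the profile most like each member were found from log2 CPM deviations over the 10 tumors, as the root mean square difference between genes, a description without a test. For Igf1, whose own deviations had a root mean square of 0.732, they were Kctd12b (0.259), Pltp (0.271) and Fmo1 (0.29). For Igf1r (0.258) they were Parva (0.0768), Sema3f (0.0804) and Eng (0.0834), and for Igf2r (0.339) Map1b (0.106), Zfhx3 (0.111) and Piezo2 (0.116). Igfbp2 (1.23) lay nearest to Aqp3 (0.487), Rdh12 (0.516) and Slco2b1 (0.522), all with negative log2 fold changes. Igfbp4 (0.51) was followed by Cobll1 (0.139), Arhgap28 (0.17) and Cdc42ep1 (0.19). Near Igfbp5 (1.1) were Pamr1 (0.362), Adcy5 (0.372) and Itih5 (0.404), and near Igfbp3 (0.247) were Tshz3 (0.096), Itgb1 (0.106) and Maged2 (0.119). The genes nearest Igfbp6 (0.582) were Exd1 (0.26), Rasgrp4 (0.26) and Nsg1 (0.261), and those nearest Igfbp7 (0.0881) were G3bp1 (0.0417), Gid4 (0.0455) and Grsf1 (0.0456). The sgTaz tumors stood above the sgCon tumors on average for the 3 genes nearest Igf1, Igf1r, Igf2r and Igfbp4. This direction, like the negative one of the genes nearest Igfbp2, follows from choosing them by their profile over the same 10 tumors.

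Other marker lists had the following values. T cell markers were below 0 in 8 of 8 (131 to 868 CPM in sgCon, 98.4 to 256 CPM in sgTaz tumors), and DESeq2 called 4 of them lower, against 3.47% of all genes. Neutrophil markers were below 0 in 7 of 7 tested (183 to 756 and 69.9 to 288 CPM), with 0 called by DESeq2 and 3 lower in limma-voom, against 5.8% of all tested genes. Pericyte and smooth muscle markers were below 0 in 4 of 8 (274 to 475 and 299.8 to 533 CPM, 1 called lower by DESeq2, against 3.47% of all genes), and skeletal muscle markers in 2 of 3 tested (11.2 to 56.1 and 7.5 to 32.8 CPM). Proliferation markers were above 0 in 7 of 10 (1399 to 1714 and 1657 to 2296 CPM, 1 called higher by DESeq2, against 3.28% of all genes), and sgTaz tumor 1 had the most. Their part in the values of Igf1r, Igfbp4 and the other members was not tested.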

How the data were processed

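RNA of 10 whole tumors was sequenced on an Illumina HiSeq sequencer. Per the study's methods, STAR placed the reads on mm10 and featureCounts of Subread counted them per gene, and the submitters' processing notes also name CASAVA. The authors deposited raw counts, with no normalization. The strand setting is not given in the sources used here. Another 5 columns of the table were not used. Tumors were grouped by their labels, and no pair of tumors was alike within sampling noise.

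Genes were named by identifier from GENCODE M21, on the same build (17860 of 17864 found; the methods name GENCODE release 12), and RPKM used the union of its exons. Counts were tested in R 4.3.3 with edgeR 4.0.16 (TMM, filterByExpr, quasi-likelihood with legacy = TRUE, Benjamini-Hochberg over 14816 genes). DESeq2 1.42.0, which the study used, and limma 3.58.1 were alternatives, with other scalings, filters, a replicate block and each tumor left out. DESeq2 adjusted 16075 genes after its own filter. The steps were tested on simulated data. Exact two-sided permutation tests were run on log2 CPM (prior count 2) over all 252 splits. Other steps ran in Python 3.11.15 (scipy 1.17.1 for tests, matplotlib 3.10.9 for plots, pandas 2.3.3, numpy 2.4.6). Promoter windows came from RefSeq. The members and lists were chosen with earlier results of these data known. All 10 members are named, and from each pathway list the 2 genes with the lowest p and at least 1 CPM, every called gene, and the 3 genes nearest in profile to each tested member. A further pathway gene is not reported here.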

Additional observations from a re-analysis of the deposited data

Results flagged for a closer look

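Igfbp7 was 351 CPM in sgCon tumor 3, while the other 4 sgCon tumors lay between 407 and 428 CPM. The gap to the nearest tumor exceeded Dixon's 95% critical value for 5 samples. This was 1 of 18 groups of tumors looked at, and chance alone gives about 0.9. The same tumor had the lowest Igf1r, Igf2r and Igfbp3, and the highest Igfbp5, of the sgCon tumors, and the highest sums of B cell (838 CPM) and lymph node stroma (882 CPM) markers of all tumors.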

How the results depend on the processing

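The number of calls depended on the tool and on single tumors, and the cause was not tested. Over all genes edgeR called 1 gene, DESeq2 1085 and limma-voom 1546, edgeR without a filter 0 (3610 at an unadjusted p below 0.05) and with at least 10 counts in every tumor 5. Leaving out a tumor gave 0 to 172 genes in edgeR, the most without sgTaz tumor 5, and 296 to 1602 in DESeq2 (chosen after seeing the data). Of the members edgeR called 0, DESeq2 3 and limma-voom 4, and with a tumor left out 0 to 1 and 1 to 4 (edgeR and DESeq2). The permutation test had 4 members below 0.05, and 2 to 4 with a tumor left out. For the pathway lists the calls were 0 in edgeR and 3 in DESeq2 and limma-voom (the latter added after seeing the data). With a tumor left out they were 1 in edgeR without sgTaz tumor 2 or without sgTaz tumor 5, 0 in its other fits, and 1 to 6 in DESeq2. Igf1, Igf1r, Igf2r, Igfbp2 and Igfbp4 kept their direction in every alternative, and Igfbp5 did so with a log2 fold change of −0.0001 in limma-voom. The log2 fold change of Igfbp7, −0.0044, became 0.01 with DESeq2, 0.01 with RLE size factors and 0.02 without a filter, and ran from −0.05 to 0.02 (DESeq2 −0.03 to 0.04) with a tumor left out. That of Igfbp3 ran from −0.08 to 0.11 (DESeq2 −0.07 to 0.12) and that of Igfbp6 from −0.25 to 0.21 (DESeq2 −0.23 to 0.22). The median of all genes, −0.019, was −0.006 with RLE size factors and −0.022 with upper-quartile normalization. Members with few counts, Igf2 above all, are limited by depth.

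Replicate numbers only share a number: deviations of same-numbered tumors correlated between −0.243 and 0.221. With the replicate block edgeR called 0 genes (2462 at an unadjusted p below 0.05) and 0 members.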

Other observations

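Igf2os, the antisense gene that shares 98 exon bases with Igf2, had 76 counts in sgTaz tumor 1 and between 2 and 17 counts in the other 9 tumors. In the same tumor Igf2 had 9 of the 16 counts of its group, Gm49394 had 45 counts, and Igfbp4 was highest and Igfbp2, Igfbp5 and Igfbp6 were lowest of all tumors. The strand setting of the counting is not stated, and without strand, reads of Igf2 and Igf2os cannot be told apart over the shared bases.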
